A study of Homo sapiens with 6 samples.

Results

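The RAS-MAPK cascade passes growth factor signals from RAS through the RAF, MEK and ERK kinases to transcription factors in the nucleus. ERK activity turns on immediate early genes within minutes, and with them a set of feedback inhibitors, the dual specificity phosphatases, Sproutys and SPREDs, that turn the cascade down again. The transcripts of these feedback and early genes are widely read as a sign of how strongly the pathway runs, whereas those of the kinases themselves usually respond little. The genes described here are 44 genes of this pathway, taken by symbol from a table of 62703 genes, and all 44 were found there. They comprise 7 genes of the cascade (NRAS, HRAS, BRAF, ARAF, MAP2K1, MAP2K2 and MAPK3), SRF and ELK1, 13 feedback inhibitors, 3 PEA3 factors, 8 AP-1 subunits, 7 other early transcription factors and 4 other early proteins.

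RNA sequencing was done on HGC-27 cells, a human cell line labelled as gastric cancer, maintained with 10% fetal bovine serum in both groups. Cells with a control shRNA (shControl, genotype WT in the labels) were compared with cells carrying an shRNA against GXYLT2 (shGXYLT2), a xylosyltransferase that acts on the EGF repeats of Notch receptors. Each group had 3 libraries. The shGXYLT2 cells were a stably transfected strain, and neither the shRNA's sequence nor whether the strain was a single clone is stated in the sources used here. Nothing in the labels says that replicates were grown separately, so the p-values cover the spread among these 6 libraries alone, which could be technical.

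Totals were 17291138 to 24898425 estimated counts per library, and GXYLT2 fell from 20.2 to 22.8 CPM (counts scaled to library size with TMM factors) in shControl to 5.27 to 6.27 CPM in shGXYLT2. Of 5 epithelial markers, KRT18, KRT19 and EPCAM averaged under 1 CPM in both groups, CDH1 averaged 2.92 and 2.33 CPM and KRT8 1.57 and 1.78 CPM. KRT18, KRT19 and EPCAM were thus at or near 0 in cells labelled as gastric cancer, a tumour of epithelium. CDH1 and KRT8 were low but had enough counts to be tested. Of 4 fibroblast markers, DCN and LUM rose, PDGFRA averaged 26.2 and 30.3 CPM and PDGFRB 1.28 and 0.6735 CPM without passing the test, and the summed level of the 4, nearly all DCN and LUM, was 388 to 399 CPM in shControl and 496 to 534 CPM in shGXYLT2. In bulk RNA, more or fewer cells of a type and more or less RNA per cell cannot be told apart, and the part of these markers in the results below was not tested. The 4 endothelial markers summed to 0.489 to 1.11 CPM and the 7 blood cell markers to 1.116 to 2.04 CPM, with PECAM1, CDH5, CD3E and HBB at 0 in every library.

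Between the groups, 6 of the 36 tested members fell, SPRED2, ETV5, JUN, EGR1, DUSP4 and MYC, and 1 rose, NR4A2 (edgeR's quasi-likelihood test at an adjusted p under 0.05 over 15693 genes). None of the 7 cascade genes was among them, and 1 of the 7 had an unadjusted p under 0.05, against 25.5% of all tested genes. The falls made up 16.7% of the tested members, against 6.84% of all tested genes, and the rise 2.78% against 5.31%. All members called in either direction were 19.4% of those tested, against 12.2% of all tested genes. The members were chosen with earlier results of these data known, so these shares are no test of the pathway. The median log2 fold change of the tested members was -0.068, and that of all tested genes -0.006. The members' median was -0.022 without shGXYLT2 replicate 2, -0.025 without shControl replicate 1, -0.11 without shControl replicate 3 and -0.122 without shGXYLT2 replicate 3. Groups did not overlap in 12 of the 36, 2 with shGXYLT2 higher and 10 with it lower, where 30.5% of all tested genes did not overlap (14.6% higher, 15.8% lower). The other 8 members had too few counts to be tested.

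**Figure D1:**
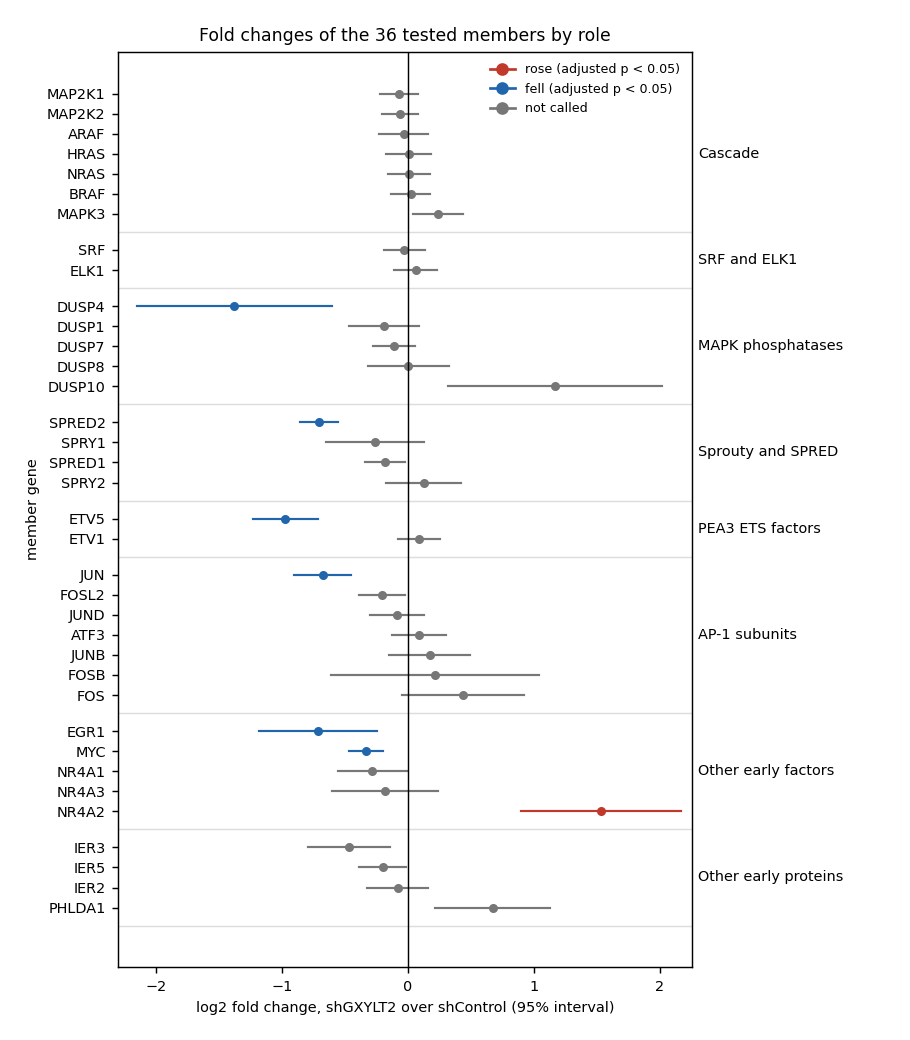
Log2 fold change of shGXYLT2 over shControl for the 36 tested members, grouped by role, with bars for the 95% interval of the edgeR fit (3 libraries a group). SRF, ELK1 and the cascade genes other than MAPK3, which is at 0.238, lie close to 0. SPRED2, ETV5, JUN, EGR1, DUSP4 and MYC lie to the left, and NR4A2 lies furthest to the right, at 1.53.

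Sums of CPM over genes were not scaled by length. Members were ranked by level only as CPM per kilobase of the gene length in the deposited table. On that scale MYC, which drives growth and ribosome production, was the most abundant member in shControl, at 71.9 CPM per kilobase. MAP2K2, which encodes the kinase MEK2, followed at 64.2, then NRAS at 39.8. The inhibitor SPRED2 came out at 29.6, but its deposited length of 1365 bases is shorter than its longest annotated 3' UTR, 2650 bases, so its place in the order is uncertain. The same holds for ETV1 and ETV5, whose deposited lengths of 4181 and 2213 bases are below 3' UTRs of 4638 and 2331 bases. Of the genes often used as readouts of ERK activity, 2 feedback inhibitors and 2 transcription factors were near the bottom. DUSP6 stood at 0.0956, ETV4 at 0.155, FOSL1 at 0.0797 and SPRY4 at 0.0326 CPM per kilobase. The other Sprouty and PEA3 genes stood higher, with SPRY1 at 2.03, SPRY2 at 2.335, ETV1 at 6.72 and ETV5 at 5.37. Among the phosphatases the order was led by DUSP7, at 8.51, and DUSP1, at 5.77 CPM per kilobase. Classic immediate early factors were also low in these growing cells, with FOS at 0.988, EGR1 at 0.794 and FOSB at 0.132 CPM per kilobase, whereas JUNB, JUND and ATF3 stood at 17.3, 12.5 and 9.15.

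**Figure D2:**
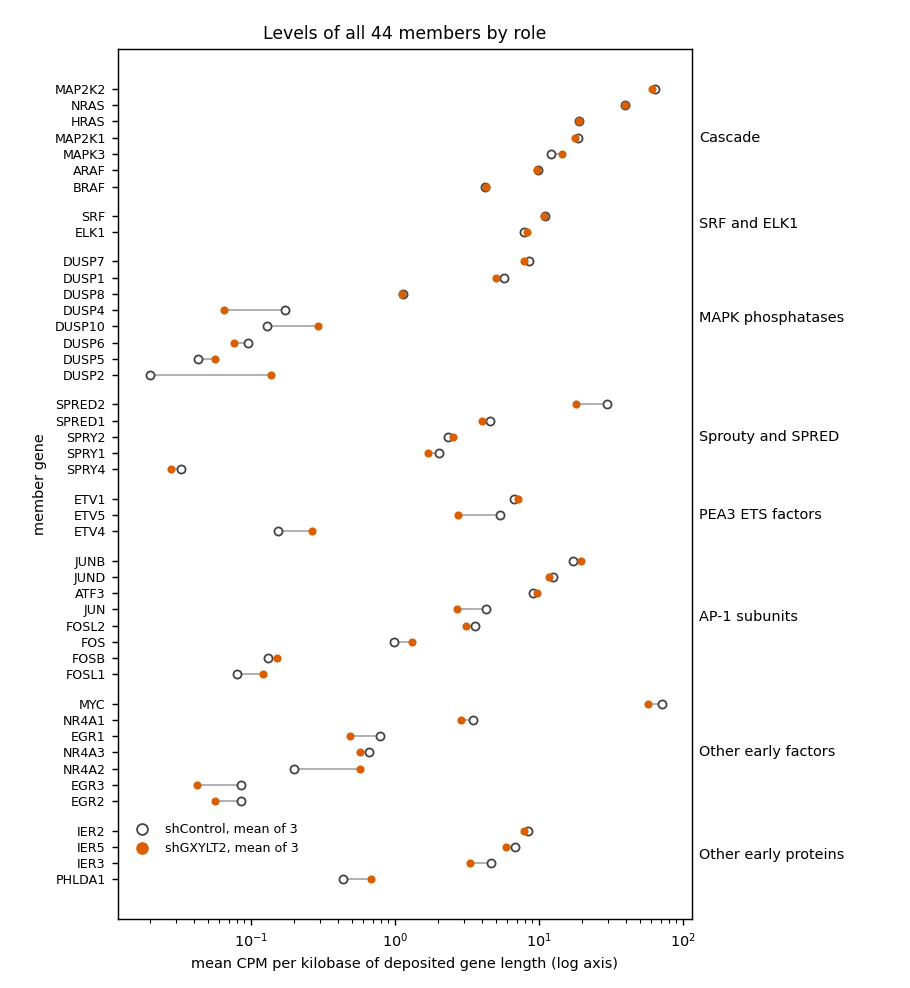
Mean CPM per kilobase of deposited gene length, on a log axis, for all 44 members by role, with open circles for shControl and filled circles for shGXYLT2 (means of 3 libraries). Cascade genes lie at 4 and above, while DUSP6, ETV4, SPRY4, FOSL1, EGR2 and EGR3 lie near or below 0.3 in both groups.

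None of the cascade genes passed the test, and for all but MAPK3 the 95% interval of the log2 fold change included 0. NRAS, a RAS GTPase, was at 169, 179 and 169 CPM in shControl replicates 1 to 3 and at 178, 193 and 147 CPM in shGXYLT2 replicates 1 to 3. The shGXYLT2 libraries thus lay on both sides of the controls, and the log2 fold change was 0.006, with a 95% interval of -0.163 to 0.175. HRAS, another RAS GTPase, averaged 20.3 ± 1.14 and 20.3 ± 0.313 CPM (SD, n = 3 each), with an interval of -0.174 to 0.182. For the RAF kinases the interval was -0.132 to 0.177 for BRAF, at 41.3 and 42 CPM, and -0.23 to 0.16 for ARAF, at 23.5 and 23 CPM.

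The MEK kinases, which phosphorylate ERK, also overlapped between groups. The means of MAP2K1 were 44.8 CPM and 42.6 CPM (interval of the log2 fold change -0.221 to 0.077), and MAP2K2 averaged 111 and 106 CPM (-0.209 to 0.082). MAPK3, which encodes ERK1, was at 21.2, 22.4 and 22 CPM in shControl and at 27.7, 21.9 and 27.8 CPM in shGXYLT2. Replicates 1 and 3 of shGXYLT2 were above every control and replicate 2 was among them, with a log2 fold change of 0.238 (SE 0.0953, edgeR adjusted p = 0.116). Of 14 alternatives 1 called MAPK3 as a rise, the fit without shGXYLT2 replicate 2 (log2 fold change 0.342, edgeR adjusted p = 0.0125). SRF, which binds serum response elements, averaged 47 and 46 CPM, and its partner ELK1, an ETS factor that ERK phosphorylates, averaged 21.3 and 22.2 CPM. Across the 7 cascade genes the summed level was 424.6 to 443.7 CPM in shControl and 417.9 to 443.5 CPM in shGXYLT2. NRAS and MAP2K2, at means of 172 and 111 CPM in shControl, weigh most in this sum.

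The feedback inhibitors were lower in sum, and a single gene held most of the difference. Summed over 13 genes their level was 132 ± 4.46 CPM in shControl and 108 ± 3.44 CPM in shGXYLT2 (SD, n = 3 each). Without SPRED2 the sums were 91.7 ± 4.18 and 83.6 ± 3.2 CPM, and shGXYLT2 replicate 3, at 87.3 CPM, then lay above shControl replicate 3, at 86.9 CPM. Of the 9 tested inhibitors 2 fell and none rose, against 6.84% and 5.31% of all tested genes.

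SPRED2 encodes a membrane-anchored inhibitor that recruits the RAS GTPase-activating protein neurofibromin, and its gene (ENSG00000198369) spans bases 65310851 to 65432637 on the minus strand of chromosome 2 (GRCh38). It was at 39.9, 41.1 and 40.3 CPM in shControl and at 25.2, 24.2 and 24.9 CPM in shGXYLT2. Libraries of one group differed by little and the groups lay far apart. The level was 1.63-fold lower (log2 fold change -0.707, SE 0.0728, edgeR adjusted p = 1.79e-06), and all 14 alternative fits kept the call. SPRED1, its paralog, was at 34.3, 34.5 and 31.4 CPM in shControl and at 30.4, 29.7 and 28.1 CPM in shGXYLT2. Its groups did not overlap either, but the change did not pass (log2 fold change -0.182, edgeR adjusted p = 0.137).

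Sproutys, which block signalling between receptors and RAF, did not pass the test. SPRY1 was at 4.71, 6.09 and 5.1 CPM in shControl and at 3.24, 4.36 and 5.7 CPM in shGXYLT2, so that the groups overlapped (edgeR adjusted p = 0.408). SPRY2 averaged 5.34 and 5.84 CPM (edgeR adjusted p = 0.645). SPRY4 had 1 to 5 counts in each library and was not tested.

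Phosphatases of the DUSP family remove phosphate from MAP kinases, and 5 of the 8 listed were tested. DUSP4, a nuclear phosphatase of ERK and JNK, had 20, 16 and 18 counts in the shControl libraries (1.15, 0.937 and 0.792 CPM) and 8, 9 and 9 counts in shGXYLT2 (0.32, 0.366 and 0.404 CPM). Groups did not overlap, and the level was 2.6-fold lower (log2 fold change -1.38, SE 0.371, edgeR adjusted p = 0.0193). The call rests on few counts: DESeq2 and 4 of the 6 fits that left out a library did not make it, namely those without shControl replicate 1 or 2 or shGXYLT2 replicate 1 or 2, with adjusted p of up to 0.112. DUSP10, a phosphatase of JNK and p38, was at 0.345, 0.352 and 0.308 CPM in shControl and at 0.759, 0.57 and 0.943 CPM in shGXYLT2. All 3 shGXYLT2 libraries were above the controls, but the test was not passed (log2 fold change 1.17, edgeR adjusted p = 0.0671).

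The more abundant phosphatases moved less. DUSP1, a nuclear phosphatase that early signalling induces, was at 12, 12.6 and 10.2 CPM in shControl and at 8.39, 9.81 and 12.3 CPM in shGXYLT2, which overlapped (edgeR adjusted p = 0.403). DUSP7, a cytoplasmic phosphatase of ERK, averaged 28.6 and 26.5 CPM, and DUSP8, which acts on JNK and p38, averaged 5.49 and 5.45 CPM. DUSP6, the cytoplasmic ERK phosphatase, had 6 to 6.81 estimated counts in the shControl libraries and 8, 10 and 2.39 in shGXYLT2. DUSP5 had 1 to 5 counts a library. DUSP2 had 1, 0 and 1 counts in shControl and 11, 3 and 3 in shGXYLT2, and fitted without a filter on low counts its edgeR adjusted p was 0.133.

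PEA3 factors are ETS transcription factors whose genes are induced by growth factor signalling. Of the 3 listed 2 were tested and 1, ETV5, fell, where 6.84% of all tested genes fell. ETV5 (ENSG00000244405, chromosome 3, bases 186046308 to 186110318, minus strand, GRCh38) was at 13.4, 10.3 and 11.9 CPM in shControl and at 6.23, 6.23 and 5.66 CPM in shGXYLT2. Every shGXYLT2 library was well below every control, and the level was 1.96-fold lower (log2 fold change -0.974, SE 0.125, edgeR adjusted p = 2.8e-05), a call that all 14 alternatives kept. ETV1 was at 28.2, 26.7 and 29.3 CPM in shControl and at 31.4, 30.4 and 27.8 CPM in shGXYLT2 (edgeR adjusted p = 0.545), with a 95% interval of -0.079 to 0.255. ETV4 had 3 to 9 counts in shControl libraries and 8 to 14 in shGXYLT2 and was not tested.

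The 3' UTRs of members were searched for GACTCAT, a 7-base word known from an earlier look at these data to be frequent in genes that fell. It occurred in the longest annotated 3' UTR of 8.35% of the tested genes that have one of at least 100 bases. Of those that fell, 25.4% carried it, a share that is no test, since the word was known from these data. Among the 36 tested members, 2 (5.56%) carried it, ETV5, which fell, and ELK1, which did not pass the test. In ETV5 the word starts at base 2103 of a 3' UTR of 2331 bases, longer than the deposited gene length of 2213 bases. Whether the ETV5 transcripts counted in these cells held the word is therefore not known. The sites are shown because ETV5 is the only fallen member with one, with the word in capitals and the flanks in lower case, 5′ to 3′ as in the GENCODE transcripts.
ETV5: cattcccattgGACTCATgcacctcccgg
ELK1: ttcaactgaaaGACTCATgctctgattgt
ELK1 was at 21.7, 20.9 and 21.2 CPM in shControl and at 21.5, 22.9 and 22.2 CPM in shGXYLT2. SPRED2, JUN, EGR1, DUSP4 and MYC lacked the word in the longest annotated 3' UTR, while DUSP5, which was not tested, had it, and its part in the level of ETV5 was not tested.

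AP-1 is a dimer of FOS and JUN family proteins that binds the promoters of growth genes. Of 7 tested subunits 1 fell and none rose, against 6.84% and 5.31% of all tested genes, with a median log2 fold change of 0.087. That median was -0.016 without shControl replicate 3, 0.187 without shControl replicate 2, 0.008 without shGXYLT2 replicate 1, 0.046 without shGXYLT2 replicate 2 and 0 with a filter at 1 CPM. JUN (ENSG00000177606, chromosome 1, bases 58780788 to 58784327, minus strand, GRCh38) was at 13.7, 14.8 and 13.6 CPM in shControl and at 9.43, 8.02 and 8.76 CPM in shGXYLT2. The groups stood clearly apart, at a level 1.6-fold lower (log2 fold change -0.679, SE 0.107, edgeR adjusted p = 2.81e-04), and all 14 alternatives kept the call.

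The other JUN genes overlapped between groups. JUNB was at 31.4, 34.2 and 29.3 CPM in shControl and at 43.3, 27.6 and 36 CPM in shGXYLT2, where replicate 2 was the lowest of all 6 libraries and replicate 1 the highest. Its log2 fold change was 0.173 (edgeR adjusted p = 0.514). Of 14 alternatives 1 called JUNB, the fit without shGXYLT2 replicate 2 (log2 fold change 0.327, edgeR adjusted p = 0.0397). JUND was at 25.1, 24.5 and 22.7 CPM in shControl and at 20.2, 20.8 and 26.9 CPM in shGXYLT2 (edgeR adjusted p = 0.639).

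FOS, the partner most rapidly induced by serum, was at 1.78, 2.87 and 1.58 CPM in shControl and at 2.76, 3.14 and 2.43 CPM in shGXYLT2. Replicate 2 of shControl lay within the shGXYLT2 range, and the log2 fold change of 0.437 had a 95% interval of -0.045 to 0.919 (edgeR adjusted p = 0.247). FOSL2, a FOS relative with slower kinetics, was below every control in all shGXYLT2 libraries, at 21 against 24.2 CPM on average, without passing (edgeR adjusted p = 0.13). ATF3, a stress-induced partner of JUN proteins, averaged 17.5 and 18.5 CPM. FOSB averaged 0.499 and 0.575 CPM, and FOSL1, with 1 to 6 counts a library, was not tested.

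**Figure D3:**
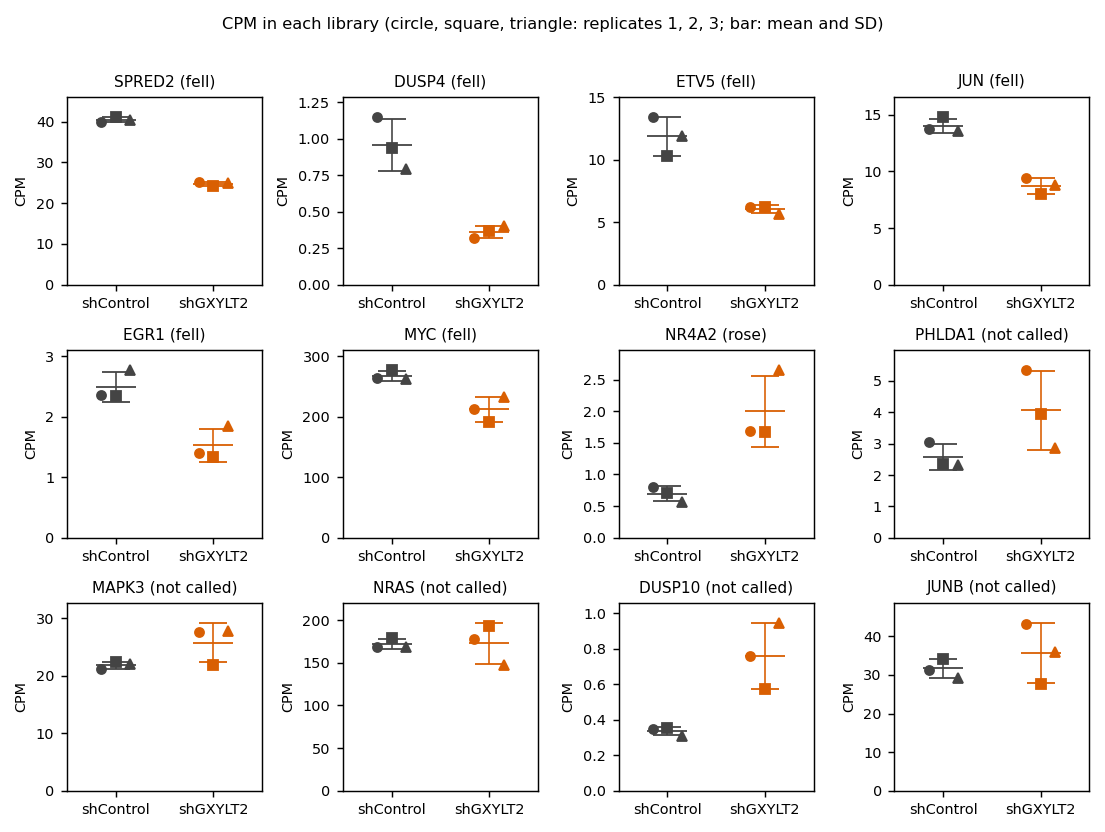
CPM in each of the 6 libraries for the 7 called members and for PHLDA1, MAPK3, NRAS, DUSP10 and JUNB, with each panel's axis starting at 0, marker shapes for replicates 1 to 3 and bars for the mean and SD. The groups do not overlap for the 7 called members and DUSP10, while PHLDA1, MAPK3, NRAS and JUNB spread widely within shGXYLT2.

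EGR1 encodes a zinc finger factor that serum induces through SRF and ternary complex factors such as ELK1, and its gene (ENSG00000120738) spans bases 138465490 to 138469315 on the plus strand of chromosome 5 (GRCh38). It had 41, 40 and 63 counts in the shControl libraries (2.36, 2.34 and 2.77 CPM) and 35, 33 and 41 counts in shGXYLT2 (1.4, 1.34 and 1.84 CPM). Groups did not overlap, and the level was 1.64-fold lower (log2 fold change -0.716, SE 0.223, edgeR adjusted p = 0.0415). This call was among the least stable, since 8 of 14 alternatives did not make it, with adjusted p of up to 0.188, among them DESeq2, the fit without a filter and 5 of the 6 fits that left out a library, the exception being the fit without shGXYLT2 replicate 3. EGR2, with 1 to 3 counts a library, and EGR3, with 5 to 9 counts in shControl and 1 to 7 in shGXYLT2, were not tested.

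RefSeq promoter windows on GRCh38.p14, from 250 bases before to 50 after the start, were matched by symbol for 35 of the 44 members (not for DUSP4, DUSP5, ETV4, ETV5, FOSL1, EGR3, NR4A2, MYC and IER3), and were searched on both strands for the CArG box, the sequence that SRF binds. The box occurred in 2 of the 35 (5.71%), EGR1 and SRF itself, and in 1.29% of 27303 promoters (0.989% of those of tested genes). Each of the 2 held it 2 times. Windows of 30 bases are shown because they set a gene that fell beside one whose level did not pass the test with the same kind of site, with the box in capitals, 5′ to 3′ on the gene's plus strand.
EGR1, chr5:138465364-138465393: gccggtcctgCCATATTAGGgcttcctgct
EGR1, chr5:138465386-138465415: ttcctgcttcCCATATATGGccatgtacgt
SRF, chr6:43171229-43171258: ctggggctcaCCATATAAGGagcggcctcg
SRF, chr6:43171249-43171278: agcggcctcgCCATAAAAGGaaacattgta
SRF was at 48.1, 46.3 and 46.5 CPM in shControl and at 44.7, 41.9 and 51.4 CPM in shGXYLT2, which surrounded the controls (edgeR adjusted p = 0.852). The cyclic AMP response element TGACGTCA was present in 3 of the 35 promoters, those of DUSP1, DUSP8 and JUND, none of which passed the test, in 1.98% of all promoters and in 3.21% of those of tested genes. The AP-1 site TGANTCA was found in 1 member promoter, that of FOSL2, in 7.76% of all promoters and in 4.39% of those of tested genes. The ETS site CCGGAAGT was in 1, that of NRAS, in 4.44% of all promoters and in 8.75% of those of tested genes. The EGR site GCGNGGGCG, which can overlap GC-rich stretches of other sites, was in 20% of the member promoters in 9.28% of all and in 15.6% of those of tested genes.

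The nuclear receptors of the NR4A family, orphan factors that many stimuli induce early, differed among themselves. NR4A2 (ENSG00000153234, chromosome 2, bases 156324432 to 156342348, minus strand, GRCh38) had 14, 12 and 13 counts in shControl (0.805, 0.703 and 0.572 CPM) and 42, 41 and 59 counts in shGXYLT2 (1.68, 1.67 and 2.65 CPM). Every shGXYLT2 library was above every control, with replicate 3 the highest, and the mean was 2.89-fold higher (log2 fold change 1.53, SE 0.303, edgeR adjusted p = 0.00224), a call kept by all 14 alternatives. NR4A1 was at 13.3, 12.4 and 11.1 CPM in shControl and at 11, 7.86 and 11.3 CPM in shGXYLT2 (log2 fold change -0.284, edgeR adjusted p = 0.183). NR4A3 averaged 3.29 and 2.85 CPM (edgeR adjusted p = 0.623). For the difference between NR4A2 and its paralogs no test was run.

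MYC was at 263, 277 and 262 CPM in shControl and at 213, 191 and 233 CPM in shGXYLT2. All 3 shGXYLT2 libraries were below the lowest control, with replicate 2 the lowest, and the level was 1.26-fold lower (log2 fold change -0.335, SE 0.0663, edgeR adjusted p = 0.00227), in all 14 alternatives too. The 20 transcription factors, MYC included, summed to 509 ± 13.8 CPM in shControl and to 443 ± 34.3 CPM in shGXYLT2 (SD, n = 3 each). Without MYC the sums were 242 ± 8.28 and 231 ± 14.1 CPM, ranges that overlapped. Of the 16 tested transcription factors 4 fell and 1 rose, against 6.84% and 5.31% of all tested genes.

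Among the other early proteins 0 of 4 passed the edgeR test, against 12.2% of all tested genes. An unadjusted p under 0.05 was found for 3 of them and for 25.5% of all tested genes. PHLDA1, a protein that restrains receptor and AKT signalling, was at 3.05, 2.34 and 2.33 CPM in shControl and at 5.35, 3.95 and 2.87 CPM in shGXYLT2. Its shGXYLT2 libraries spread over a wider range than those of most members, with a coefficient of variation of 30.6% where counting alone would give 10.1%, and replicate 3 lay inside the control range. The log2 fold change was 0.67 (edgeR adjusted p = 0.0503), and 4 of 14 alternatives called it as a rise, one of them without shGXYLT2 replicate 3 (adjusted p = 0.00599). IER3, a regulator of survival after stress, was at 5.22, 6.68 and 5.29 CPM in shControl and at 4.51, 3.74 and 4.07 CPM in shGXYLT2, below every control (log2 fold change -0.471, edgeR adjusted p = 0.0551). IER5 averaged 28.7 and 25 CPM (edgeR adjusted p = 0.161). Of 14 alternatives 1 called IER5, the fit without shGXYLT2 replicate 3 (edgeR adjusted p = 0.0136). IER2 averaged 24.6 and 23.1 CPM (edgeR adjusted p = 0.716).

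Within each group 1 library tended to hold the lowest values of these genes. Replicate 3 of shControl was the lowest of its group for 23 of the 36 tested members (63.9%), against 35.3% of all tested genes, and replicate 2 of shGXYLT2 for 20 of 36 (55.6%), against 35.9%. Replicate 3 of shGXYLT2 was the highest of its group for 20 members (55.6%), against 39.9% of all tested genes. The median coefficient of variation of the tested members was 6.69% within shControl and 10.2% within shGXYLT2, and that of all tested genes 6.29% and 8.86%.

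Other genes of the pathway were read from lists that do not include the members. In the core of the pathway, 1 of 20 tested genes fell and none rose, against 6.84% and 5.31% of all tested genes. The median log2 fold change of this list was -0.035. The one that fell was PTPN11, which encodes the phosphatase SHP2 that couples receptors to RAS, from a mean of 248 CPM (SD 1.44) to 213 CPM (SD 16.9, n = 3 in both; edgeR adjusted p = 0.0261). This call was lost without shControl replicate 1, 2 or 3 and with a replicate term, at adjusted p of up to 0.106. Among further negative regulators 0 of 23 passed the edgeR test, against 12.2% of all tested genes. Of these regulators, NF1, which encodes neurofibromin, was at 156 and 149.5 CPM (edgeR adjusted p = 0.613). PEBP1 was at 121 and 128.5 CPM (edgeR adjusted p = 0.37).

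Of 16 tested effectors of ERK 1 rose and 4 fell, against 5.31% and 6.84% of all tested genes, with a median of -0.058. The ETS factor ETS1 fell from 65.7 to 47.9 CPM (1.37-fold lower, edgeR adjusted p = 1.53e-04). RPS6KA5, the kinase MSK1 that phosphorylates CREB and histone H3, fell from 9.78 to 5.52 CPM (edgeR adjusted p = 3.94e-04). MRTFA, an actin-regulated partner of SRF, fell from 19.65 to 13.2 CPM (1.49-fold lower, edgeR adjusted p = 8.75e-04). RPS6KA2, the kinase RSK3, rose from 3.445 to 4.99 CPM, a call (edgeR adjusted p = 0.0432) that 7 of 14 alternatives did not make, namely DESeq2, a replicate term and the fits without shControl replicate 1 or 2 or any 1 shGXYLT2 replicate (adjusted p of up to 0.231).

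The ERK5, JNK and p38 arms held 23 tested genes, of which 2 rose and 3 fell, against 5.31% and 6.84% of all tested genes. The median of these arms was -0.115. MAPK14, the p38 alpha kinase, was at 72.5, 69.4 and 67.7 CPM in shControl and at 43.4, 44.4 and 42.6 CPM in shGXYLT2, a fall in which the groups stood far apart (1.61-fold lower, edgeR adjusted p = 6.06e-07). MAP2K6, a kinase that activates p38, rose from 11.1 to 19.8 CPM (1.79-fold, edgeR adjusted p = 3.16e-05), while MAP2K3, which also activates p38, fell from 28.8 to 22.3 CPM (edgeR adjusted p = 0.00586, and 0.051 without shControl replicate 2). MAP2K5, the kinase of ERK5, rose from 23.6 to 30.4 CPM (edgeR adjusted p = 0.00767, and 0.0582 without shControl replicate 3). MAP3K7, the kinase TAK1, fell from 50.4 to 41.5 CPM (edgeR adjusted p = 0.0199), a call lost without shControl replicate 1, 2 or 3.

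In a list of further early response genes, 4 of 38 tested genes rose and 9 fell, against 5.31% and 6.84% of all tested genes. The median of the list was -0.206. Earlier results of these data were known when the list was chosen, so its counts and median are no test of early response genes. EMP1, a membrane protein, fell from 95.8 to 42.4 CPM (2.26-fold lower, edgeR adjusted p = 1.15e-09). CCN1 fell from 72.3 to 51.2 CPM and the zinc finger factor KLF6 from 63 to 48.3 CPM. The ephrin receptor EPHA4 rose from 6.99 to 11.4 CPM (edgeR adjusted p = 5.43e-04), the kinase SGK1 from 21.7 to 30.2 CPM and KLF4 from 3.05 to 5.03 CPM. The KLF4 call was lost without shControl replicate 3 (edgeR adjusted p = 0.0661). Genes of handling and heat stress summed to 13760 to 14130 CPM in shControl and 13470 to 14290 CPM in shGXYLT2. Of 12 tested stress genes 1 fell and none rose, against 6.84% and 5.31% of all tested genes. The one that fell was HSPA1A, from 6.06 to 3.72 CPM (edgeR adjusted p = 0.0157). Its call was lost without shControl replicate 1 or 2 or shGXYLT2 replicate 1 or 2, and its value is uncertain, because reads may be shared with HSPA1B, whose sequence is almost the same.

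**Figure D4:**
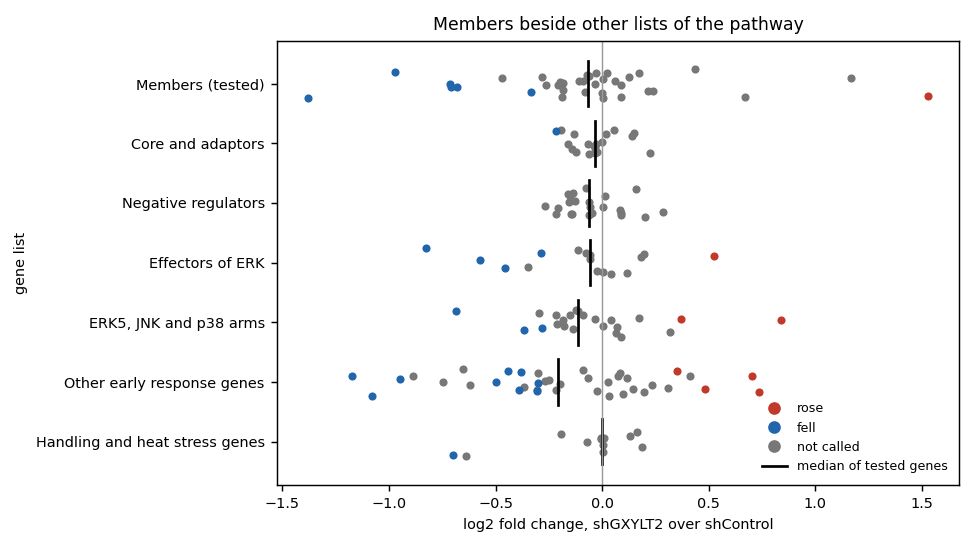
Log2 fold changes of single tested genes in the member list and in 6 further lists of the pathway and of early and stress genes, with a black bar for each list's median and color for the edgeR call. Other early response genes have the lowest median (-0.206), and the stress genes center on 0. The lists were chosen with earlier results of these data known.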

How the data were processed

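Total RNA was taken with TRIzol and made into libraries with a stranded messenger RNA kit, per the labels' protocols. The submitters' processing notes name fastp, HISAT2, StringTie and GRCh38.p13; the sources used here do not give their roles or versions, the use of strand or the annotation, so reads of overlapping genes could not be told apart. The authors deposited unnormalized estimated counts for each gene, 12.3% of which were not whole numbers (in 14 of the 44 members, and in all libraries for BRAF, MAP2K1 and NR4A1), and a gene length of undefined kind, used only for levels per kilobase.

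Counts were rounded and fitted on the whole table with edgeR 4.0.16 in R 4.3.3: filterByExpr by group, TMM factors, robust quasi-likelihood test with group as the only term, Benjamini-Hochberg adjustment over 15693 genes, threshold 0.05. CPM values are scaled by TMM, SEs and 95% intervals come from the fit, and means carry the SD over 3 libraries. Library pairs had a chi-square per degree of freedom of 1.98 or more, and all were kept as separate libraries. The model was tested on simulated data for this comparison (15677 genes tested), where it recovered 36% of 1.25-fold, 76% of 1.5-fold and 96% of 2-fold changes of 50 genes each, with 6 false calls. The simulation gave every gene the same biological coefficient of variation, 6.5%, in both groups. It placed changes only in genes above a floor of summed counts, which DUSP4, DUSP10 and FOSB did not reach. In the real data the shGXYLT2 libraries differed more among themselves (chi-square per degree of freedom 5.84 to 10.9) than the shControl libraries (1.98 to 4.02). The rates may therefore be too favorable for the members. Alternatives were other factors, filters and tools (DESeq2 1.42.0, limma-voom 3.58.1), a replicate term and leaving out each library. Positions and 3' UTRs came from GENCODE release 29 (GRCh38). Named genes are the 44 members, GXYLT2, and from each further list up to 3 rises and 3 falls by adjusted p or, where none passed, the 2 genes of highest mean CPM. Cell type markers were also named. The members and lists were chosen with earlier results of these data known.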

Additional observations from a re-analysis of the deposited data

How the results depend on the processing

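Of the 7 calls among the members, SPRED2, ETV5, JUN, MYC and NR4A2 were kept by all 14 alternatives, DUSP4 by 8 of 13 and EGR1 by 6 of 14. The members that fell numbered 4 to 7 over all alternatives, against 6. Those that rose numbered 2 with upper-quartile factors, 2 without a filter, 2 with the replicate number as a block and 1 to 3 with a library left out. Over all genes, leaving out a library gave 397 to 1038 rises and 563 to 1309 falls, against 833 and 1074. The lowest counts of rises, 399, 455 and 397, came without shControl replicates 1, 2 and 3. The median of the cascade genes, 0.004, ran from -0.043 to 0.016 with a library left out.

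No shared deviation was seen between libraries with the same replicate number in the titles, which correlated at 0.00519, -0.0429 and -0.0234. Over all pairs between the groups the values ran from -0.0429 to 0.0473. With 3 libraries a group this cannot show whether libraries were grown or prepared in pairs. The table's column names carry another numbering, 1, 2 and 4 for shControl and 1, 3 and 4 for shGXYLT2, under which the libraries titled replicate 2 share no number. The block, made with the title numbers, gave 606 rises and 865 falls, and EGR1 was not called with it.

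Signs changed only for genes whose change was not called. On the log2 scale, NRAS was at -0.002 with limma-voom and -0.004 with the block, and DUSP8 at -0.001 with RLE factors and -0.004 with DESeq2. With a library left out, the values ran from -0.084 to 0.113 for NRAS, -0.043 to 0.035 for HRAS, -0.019 to 0.075 for BRAF, -0.13 to 0.016 for ARAF, -0.108 to 0.004 for MAP2K2, -0.114 to 0.029 for SRF, -0.124 to 0.154 for DUSP8, -0.016 to 0.187 for ATF3, -0.204 to 0.026 for IER2 and -0.101 to 0.006 for NF1. The cause was not tested. The 8 members that were not tested had 0 to 14 counts a library.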
